A study of Mus musculus with 36 samples.

Results

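The S100 calcium-binding proteins described here are the products of 9 mouse genes, S100a1, S100a4, S100a6, S100a10, S100a11, S100a13, S100a14, S100a16 and S100g, chosen by symbol from the 52636 genes listed in the count tables. Symbols were mapped to the Ensembl identifiers of the tables, and a gene with a mean under 0.5 CPM (counts scaled to a common library size) would have been reported as not detected. All 9 members passed that limit, with means over the 36 libraries from 0.80 CPM (S100a4) to 791 CPM (S100a6), and all 9 passed the filter on low counts and were tested. RNA was sequenced from organoids, which are epithelial cultures grown from crypts, here of the jejunum of C57BL/6 mice. The growth medium was IntestiCult, called complete media. QCM was complete media mixed with concentrated medium from mouse embryonic fibroblasts made quiescent by serum deprivation, and SCM was the same from fibroblasts made senescent by X-rays or doxorubicin. There were 6 conditions of 6 libraries each. Complete media and QCM were each given with control IgG alone, while SCM was given either with IgG or with anti-Ptk7, an antibody against Ptk7, a Wnt co-receptor with an inactive kinase domain. Wnt5a, a noncanonical Wnt ligand added to complete media, was likewise given with either antibody. Every culture thus received an antibody. No library came from complete media alone or from QCM with anti-Ptk7, so the effect of the antibody there cannot be told from these data. The crypts came from 6 mice, whose age the labels do not give, and libraries carry the numbers 1 to 6 in every condition. The conditioned media come from embryonic rather than intestinal fibroblasts, and the organoids hold no stroma of their own.

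S100 proteins are small proteins with a pair of EF hands, the helix-loop-helix folds that bind calcium ions. Most form dimers that open a binding face when calcium rises and then attach to target proteins such as annexins, myosin heavy chains or the p53 protein, and some are released from cells and act on receptors. In the intestinal epithelium S100g, also called calbindin-D9k, buffers calcium on its way through enterocytes, while S100a6, S100a10 and S100a11 partner annexins at membranes.

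Of the 9 genes, 8 lie on mouse chromosome 3 and S100g lies on the X chromosome (GRCm38, GENCODE annotation). S100a1 (minus strand, chr3:90511034-90514392) and S100a13 (plus strand, chr3:90514435-90524581) stand head to head, with 42 bases between their annotated starts. S100a14 (chr3:90526856-90528837), S100a16 (chr3:90537254-90543151), S100a4 (chr3:90603771-90606045) and S100a6 (chr3:90612882-90624181) follow on the plus strand, so that S100a1 to S100a6 span 113 kb. S100a11 (chr3:93520488-93526287) and S100a10 (chr3:93555080-93564643) form a second group 2.9 Mb further along, with 28792 bases between them. S100g occupies chrX:162961992-162964599 on the minus strand.

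Promoter windows from RefSeq (GRCm38.p6, 250 bases before to 50 after each start) were available for 7 of the 9 members, in 8 windows. They were searched on both strands for the letters TGANTCA (bound by AP-1), GGAATG (bound by TEAD factors) and TATAAA (the TATA box). Of all 32851 windows in the same table, 7.81% held TGANTCA, 14.7% held GGAATG and 13.6% held TATAAA. Among the members, TGANTCA was found in the S100a11 window (2 matches) and in 1 of the 2 S100a16 windows (1 match), TATAAA in the S100a4 and S100g windows (1 match each), and GGAATG in none of the 8. The stretches before the annotated gene starts of 5 members are shown, because S100a1 and S100a13 share theirs and S100a1 alone of the pair was called with anti-Ptk7, S100a6 and S100a11 were highly correlated across libraries, and S100g was not correlated with them. Capitals mark matches to TGANTCA, and each is written 5′ to 3′ on the plus strand, or on the minus strand for S100g.
S100a1 and S100a13 (chr3:90514393-90514434): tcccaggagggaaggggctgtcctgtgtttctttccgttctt
S100a6 (chr3:90612644-90612881): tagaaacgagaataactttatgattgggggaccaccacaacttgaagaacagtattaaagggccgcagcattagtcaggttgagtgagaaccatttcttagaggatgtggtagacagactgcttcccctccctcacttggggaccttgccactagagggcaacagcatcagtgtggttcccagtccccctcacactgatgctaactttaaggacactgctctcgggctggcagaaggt
S100a11 (chr3:93520246-93520487): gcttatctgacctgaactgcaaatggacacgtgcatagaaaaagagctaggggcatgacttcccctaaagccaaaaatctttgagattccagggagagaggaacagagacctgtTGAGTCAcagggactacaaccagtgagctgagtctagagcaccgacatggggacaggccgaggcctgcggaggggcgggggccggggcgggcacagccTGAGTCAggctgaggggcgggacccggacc
S100g (chrX:162964600-162964849): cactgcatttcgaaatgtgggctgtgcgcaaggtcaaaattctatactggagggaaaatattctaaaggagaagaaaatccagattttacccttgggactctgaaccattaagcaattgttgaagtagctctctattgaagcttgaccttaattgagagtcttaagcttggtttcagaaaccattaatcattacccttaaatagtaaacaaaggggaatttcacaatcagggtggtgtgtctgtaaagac
The share of G and C was lowest before S100g, at 38.4%, and highest before S100a11, at 59.1%. The TATAAA match of the S100g window lay wholly in the bases after the annotated start and is not in the stretch shown.

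Libraries held between 9581589 and 21029769 counts, with a median of 13490071. The members were covered unequally, from 0 to 40 counts per library for S100a4 to between 1365 and 35587 for S100a6. The libraries numbered 1 stood apart. They held the highest level of S100a6, S100a11 and S100a16 in 6 of 6 conditions and the highest level of S100a14 in 5, and the lowest level of S100g in 4. In them the summed level of 5 intestinal stem cell markers was the lowest of its condition in 6 of 6 conditions, at 782 CPM against a median of 1665 in Wnt5a + anti-Ptk7. The summed level of 8 Paneth and goblet cell markers was also lowest there in all 6 conditions. The sums of the enterocyte markers and of the enteroendocrine and tuft cell markers were lowest there in 5 of 6 conditions each, and the sum of the epithelial markers was highest there in 5. The part of these marker differences in the results was not tested. In bulk RNA, fewer cells of a type and less RNA per cell cannot be told apart.

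Levels were compared between members per kilobase, over the union of exons and over the coding length, since the reads were counted within coding sequences. S100a10 and S100a6 were among the highest on both scales, and S100a4 was lowest. In complete media S100a10 stood at 273 ± 70.3 CPM per kilobase of exon (SD, n = 6 here and for the next values), S100a6 at 201 ± 118 and S100g at 198 ± 29.7. Per coding kilobase they stood at 1136 ± 293, 1027 ± 605 and 401 ± 60.1 CPM. S100g was thus level with S100a6 per exon kilobase and had the lower mean per coding kilobase, and its range of 1 SD lay clear of that of S100a10 on the second scale but not on the first. S100a11, S100a16, S100a1 and S100a14 stood at 43.2 ± 18.7, 29.6 ± 12.2, 28.9 ± 5.85 and 12.6 ± 6.55 CPM per exon kilobase, and at 75 ± 32.5, 129 ± 52.9, 71.1 ± 14.4 and 69.6 ± 36.3 CPM per coding kilobase. Their order therefore changed with the length used, S100a11 having the highest mean on the first scale and S100a16 on the second. S100a13 followed at 7.22 ± 2.07 per exon kilobase and 10.8 ± 3.09 per coding kilobase. S100a4 was at 0.66 ± 0.50 and 1.28 ± 0.97, and 1 of the 6 libraries had no count for it. In SCM + IgG S100a6 had the highest mean on both scales, at 843 ± 446 per exon kilobase and 4318 ± 2285 per coding kilobase, overlapping S100a10 at 580 ± 181 and 2414 ± 753.

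**Figure D1:**
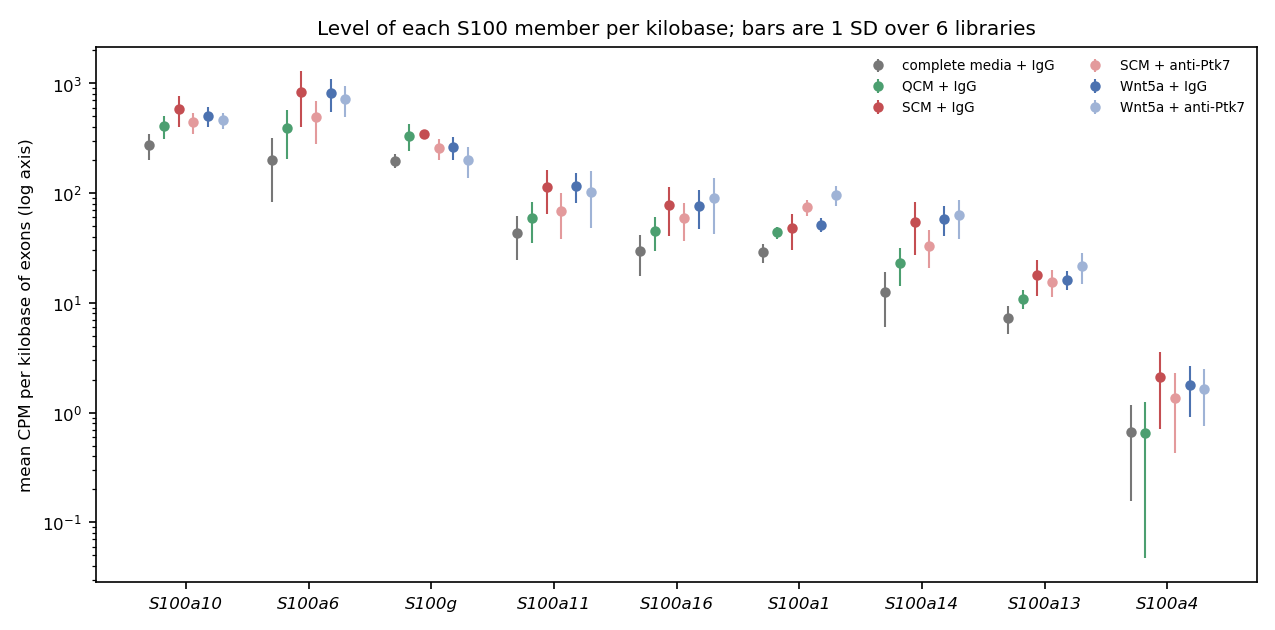
Mean level of each member in CPM per kilobase of exon (log axis) in the 6 conditions, with bars of 1 SD over 6 libraries. On this length S100a10, S100a6 and S100g lie highest in every condition, and S100a4 lies at 2.13 CPM per kilobase or lower throughout.

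The annexin partners S100a6, S100a10 and S100a11 were higher in SCM and in Wnt5a than in complete media. S100a6, known as calcyclin, binds annexins and the calcyclin-binding protein Cacybp. Its level in complete media + IgG ran from 114 to 568 CPM with a median of 230 CPM, in QCM + IgG from 290 to 859 (median 438), and in SCM + IgG from 605 to 2317 (median 1003). In SCM + anti-Ptk7 it ran from 329 to 1036 CPM (median 655), in Wnt5a + IgG from 832 to 1839 (median 1016), and in Wnt5a + anti-Ptk7 from 693 to 1552 (median 919). All 6 libraries of SCM + IgG and all 6 of Wnt5a + IgG lay above every library of complete media, the highest of which was number 1.

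S100a10 does not need calcium and joins annexin A2 in a tetramer at the plasma membrane. It ran from 247 to 475 CPM in complete media (median 299), from 400 to 665 in QCM + IgG (median 431), from 498 to 1120 in SCM + IgG (median 643) and from 530 to 864 in Wnt5a + IgG (median 568). Here too the SCM + IgG and Wnt5a + IgG libraries lay above all of complete media. With anti-Ptk7 it ran from 400 to 667 CPM in SCM (median 524) and from 460 to 734 CPM in Wnt5a (median 553).

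S100a11 binds annexin A1. It ran from 11.3 to 38.2 CPM in complete media (median 18.7), from 17.9 to 49.5 in QCM + IgG (median 25.6), from 33.9 to 99.8 in SCM + IgG (median 54.8) and from 44.4 to 93.5 in Wnt5a + IgG (median 52.7). The SCM + IgG libraries overlapped those of complete media, through number 1 of complete media at 38.2 CPM, and the Wnt5a + IgG libraries did not. With anti-Ptk7 it ran from 16.9 to 62.1 CPM in SCM (median 32.8) and from 32.6 to 107 CPM in Wnt5a (median 39.9).

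S100a14 and S100a16 are epithelial members of the family. S100a14 ran from 8.17 to 41.5 CPM in complete media (median 19.7), from 23.7 to 58.6 in QCM + IgG (median 35.6), from 51.9 to 184 in SCM + IgG (median 79.0) and from 77.9 to 160 in Wnt5a + IgG (median 92.2). The SCM + IgG and Wnt5a + IgG libraries lay above all of complete media. With anti-Ptk7 it ran from 32.9 to 90.4 CPM in SCM (median 53.0) and from 72.1 to 187 CPM in Wnt5a (median 90.6).

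S100a16 ran from 30.1 to 81.8 CPM in complete media (median 39.7), from 49.6 to 113 in QCM + IgG (median 62.6), from 66.4 to 230 in SCM + IgG (median 111) and from 87.4 to 214 in Wnt5a + IgG (median 103). With anti-Ptk7 it ran from 48.1 to 139 CPM in SCM (median 96.3) and from 84.1 to 293 CPM in Wnt5a (median 114). The libraries of both Wnt5a conditions lay above all of complete media, and those of the other 3 conditions overlapped them. The overlap of SCM + IgG came from number 1 of complete media alone, since the next library of complete media was at 60.9 CPM, under all of SCM + IgG.

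S100a13 takes part in the release of Fgf1 and Il1a, proteins without a signal peptide, and S100a1 is best known from heart and skeletal muscle, where it acts on calcium release channels. S100a13 ran from 3.42 to 7.83 CPM in complete media (median 4.80), from 5.51 to 9.29 in QCM + IgG (median 8.18), from 6.88 to 20.9 in SCM + IgG (median 12.7) and from 8.87 to 15.2 in Wnt5a + IgG (median 11.6). With anti-Ptk7 it ran from 7.74 to 15.5 CPM in SCM (median 10.6) and from 11.3 to 23.7 CPM in Wnt5a (median 13.7). Every library of both Wnt5a conditions exceeded the highest of complete media, which was number 1. The next library of complete media was at 5.61 CPM, under all of SCM + IgG and of SCM + anti-Ptk7. S100a1 ran from 15.9 to 27.8 CPM in complete media (median 19), from 27 to 37.7 in QCM + IgG (median 29.6), from 22.2 to 55.4 in SCM + IgG (median 29.4) and from 31.8 to 45.3 in Wnt5a + IgG (median 34.3). Its overlap of SCM + IgG and of QCM + IgG with complete media also came from number 1 of complete media, with the next library at 20.2 CPM. With anti-Ptk7 it reached 43.2 to 65.1 CPM in SCM (median 49.6) and 52.8 to 84.4 CPM in Wnt5a (median 61.6). Of the 24 libraries with IgG, 2 exceeded the lowest of the 12 with anti-Ptk7, namely number 1 of SCM and number 1 of Wnt5a.

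S100a4, known for binding nonmuscle myosin and for its role in cell motility, was near the limit of detection. Its mean was 0.39 CPM in complete media and 0.38 CPM in QCM + IgG, both under the 0.5 CPM limit, and 1.24 ± 0.83 in SCM + IgG, 0.80 ± 0.55 in SCM + anti-Ptk7, 1.05 ± 0.51 in Wnt5a + IgG and 0.95 ± 0.51 in Wnt5a + anti-Ptk7 (SD, n = 6). Libraries of all conditions overlapped, and a single library ran from 0 to 2.61 CPM. The annotated gene Gm42674 overlaps S100a4 and held a mean of 0.0027 CPM.

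S100g followed another order. It ran from 76.3 to 117 CPM in complete media (median 94.8), from 123 to 244 in QCM + IgG (median 149) and from 152 to 192 in SCM + IgG (median 162), with no overlap of either with complete media. In Wnt5a + IgG it ran from 70.3 to 159 CPM (median 130), in SCM + anti-Ptk7 from 84.3 to 160 (median 121) and in Wnt5a + anti-Ptk7 from 41.5 to 127 (median 102). The lowest library of the last 3 conditions was number 1 in each, and without number 1 the lowest of Wnt5a + IgG was at 122 CPM, above all of complete media.

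**Figure D2:**
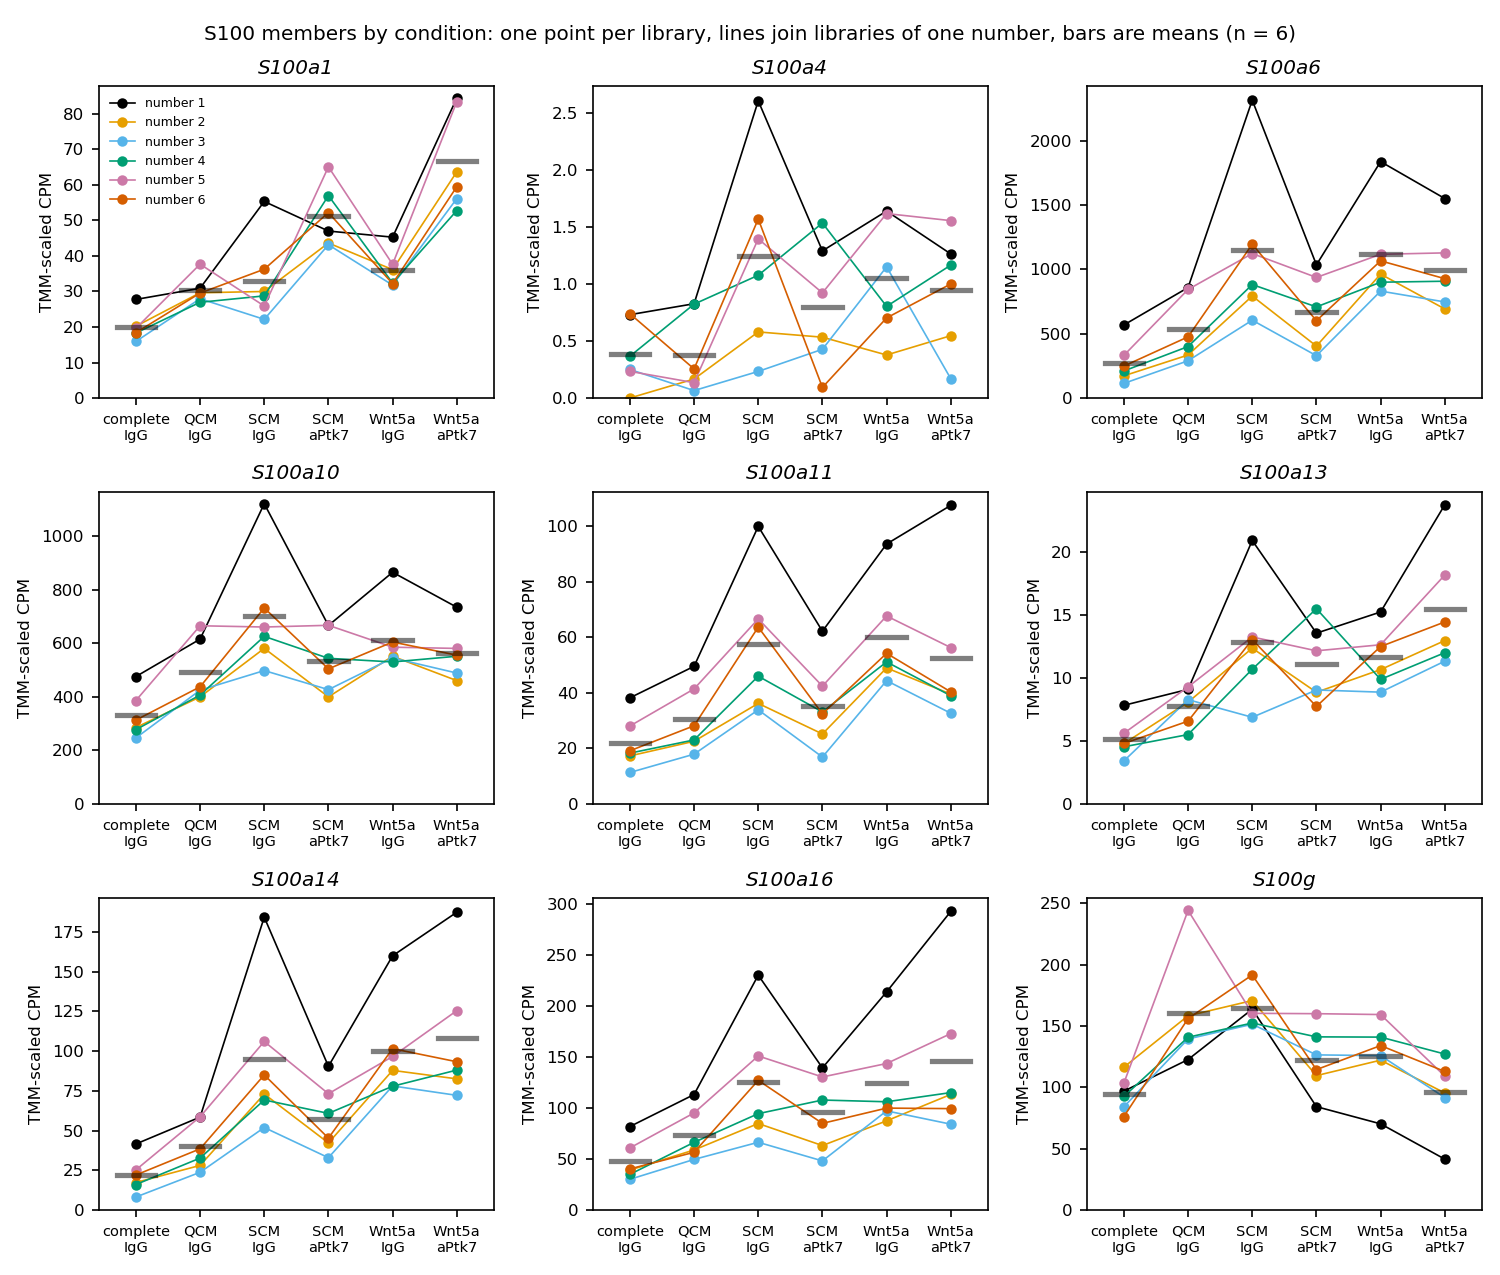
TMM-scaled CPM (vertical axes, each from 0) of the 9 members in the 6 conditions (aPtk7, anti-Ptk7), with 1 point per library, lines joining libraries of the same number and grey bars for the means of 6. Number 1 (black) is highest for S100a6, S100a11 and S100a16 in all conditions, and S100a1 is highest in the anti-Ptk7 conditions.

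The first comparison asked what the medium of quiescent fibroblasts did by itself. A gene was called when its adjusted p (Benjamini-Hochberg over 15497 genes) in edgeR's quasi-likelihood test was under 0.05 and its fold change over 1.5. In QCM + IgG against complete media + IgG, S100g rose by 0.76 ± 0.19 log2 (SE), a fold of 1.69 (adjusted p = 0.0474), and was the 1 member called of 9. Of all genes tested 0.355% were called higher and 0.0194% lower. Its libraries did not overlap those of complete media, as for 1.38% of all genes. Without complete media library 1 those of S100a1 and S100a10 did not overlap either, so 3 members did not, as for 2.57% of all genes. With 1 of the 12 libraries left out at a time, the S100g call was kept only without QCM library 1, and the adjusted p ran from 0.0476 to 0.208, highest without QCM library 5. S100a1 was called without complete media library 1, at 0.70 log2, and its adjusted p over the 12 ran from 0.0406 to 0.258. The median log2 fold change was 0.61 over the members and 0.023 over all genes, and 8 of the 9 members, all but S100a4, were higher in QCM in 6 of 6 number-matched pairs. With the replicate number as a block, 6 members were called higher (1.07% of all genes were), namely S100a1 at 0.62, S100a6 at 1.02, S100a13 at 0.64, S100a14 at 0.94, S100a16 at 0.64 and S100g at 0.72 log2. Without any library numbered 1, and with no block, 5 were called higher, S100a1, S100a6, S100a10, S100a14 and S100g, as were 0.702% of all genes in that fit.

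The comparison of SCM with complete media addressed the effect of senescent fibroblast medium. In SCM + IgG 8 of the 9 members rose (4.96% of all genes tested were called higher and 1.12% lower) and none fell. The largest changes were in S100a14 at 2.13 ± 0.33 log2 (SE, adjusted p = 2.65e-05) and S100a6 at 2.07 ± 0.35 (adjusted p = 0.000107), or 4.39-fold and 4.21-fold. S100a16 rose by 1.40, S100a11 by 1.39, S100a13 by 1.32, S100a10 by 1.09, S100g by 0.80 and S100a1 by 0.73 log2, with adjusted p between 7.35e-05 and 0.00422. S100a4 had an adjusted p of 0.0932 and was called only with the block, where the other 8 members and S100a4 were called higher (5.82% of all genes were). Its mean in complete media was under the 0.5 CPM limit, and it passed the filter through the SCM and Wnt5a conditions where it was higher, so no fold is given for it and its calls add no support. The libraries of S100a6, S100a10, S100a14 and S100g did not overlap those of complete media (3.76% of all genes). Without complete media library 1, 8 members, all but S100a4, did not overlap (5.63% of all genes). The median log2 fold change was 1.39 for the members and 0.0068 for all genes. Without library number 1 of SCM, the S100a1 change was 0.51 log2, under the fold limit.

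Wnt5a in complete media moved 7 of the 9 members, all upward, where 8.29% of all genes tested were called higher and 1.88% lower. S100a14 rose by 2.21 ± 0.33 log2 (SE, 4.63-fold, adjusted p = 7.58e-06) and S100a6 by 2.03 ± 0.35 (4.09-fold, adjusted p = 6.82e-05). S100a11 rose by 1.45, S100a16 by 1.38, S100a13 by 1.17, S100a10 by 0.89 and S100a1 by 0.84 log2, with adjusted p between 0.000264 and 0.0018. All 7 were higher in 6 of 6 number-matched pairs, with no overlap between the groups, as were 6.85% of all genes. S100g differed by 0.40 ± 0.19 log2 (95% interval 0.021 to 0.79, adjusted p = 0.128) and S100a4 had an adjusted p of 0.125 and was called with the block (8.62% of all genes were called higher there), with the same limit. The 3 comparisons above share their control libraries. In Wnt5a + IgG against SCM + IgG directly, none of the 9 members was called by edgeR, with or without the block, by DESeq2 or by limma with voom (0.297% of all genes were called higher and 0.394% lower), and 1 member, S100g, had an unadjusted p under 0.05, at -0.39 ± 0.19 log2 and lower in 6 of 6 pairs. The 95% intervals of the difference ran from -0.72 to 0.64 log2 for S100a6 and from -0.54 to 0.70 for S100a14, so differences of that size between SCM and Wnt5a were not excluded.

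Senescent and quiescent media both come from embryonic fibroblasts. Their preparation also differed in serum, in X-ray or drug exposure and in time in culture, which cannot be told apart from the state of the cells. In SCM + IgG against QCM + IgG, S100a14 rose by 1.25 ± 0.31 log2 (SE, 2.37-fold, adjusted p = 0.0328) and was the 1 member called, where 0.761% of all genes were called higher and 0.142% lower. That call was lost without QCM library 2, 3 or 4, or SCM library 1 or 5, and over the 12 libraries left out in turn the adjusted p ran from 0.0221 to 0.145. S100a6 was also called without QCM library 5, and S100a13 without SCM library 3. S100a6 differed by 1.11 ± 0.34 log2 (adjusted p = 0.075), S100a11 by 0.92 ± 0.32 (adjusted p = 0.118), S100a16 by 0.78 ± 0.31 (adjusted p = 0.187) and S100a13 by 0.72 ± 0.22 (adjusted p = 0.0746). S100a10 differed by 0.52 ± 0.18 log2 (adjusted p = 0.117), and with the block by 0.50 log2 (adjusted p = 0.000107), short of the fold limit. S100a1 at 0.12 ± 0.16 and S100g at 0.042 ± 0.19 log2 were the smallest differences. With the block, 6 members were called higher (2.74% of all genes were), namely S100a14 at 1.20, S100a6 at 1.10, S100a11 at 0.91, S100a16 at 0.73 and S100a13 at 0.66 log2, and S100a4, which was under the 0.5 CPM limit in QCM too, at 1 to 13 counts a library. Without the libraries numbered 1, S100a6, S100a11 and S100a14 were called higher, as were 1.58% of all genes in that fit.

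**Figure D3:**
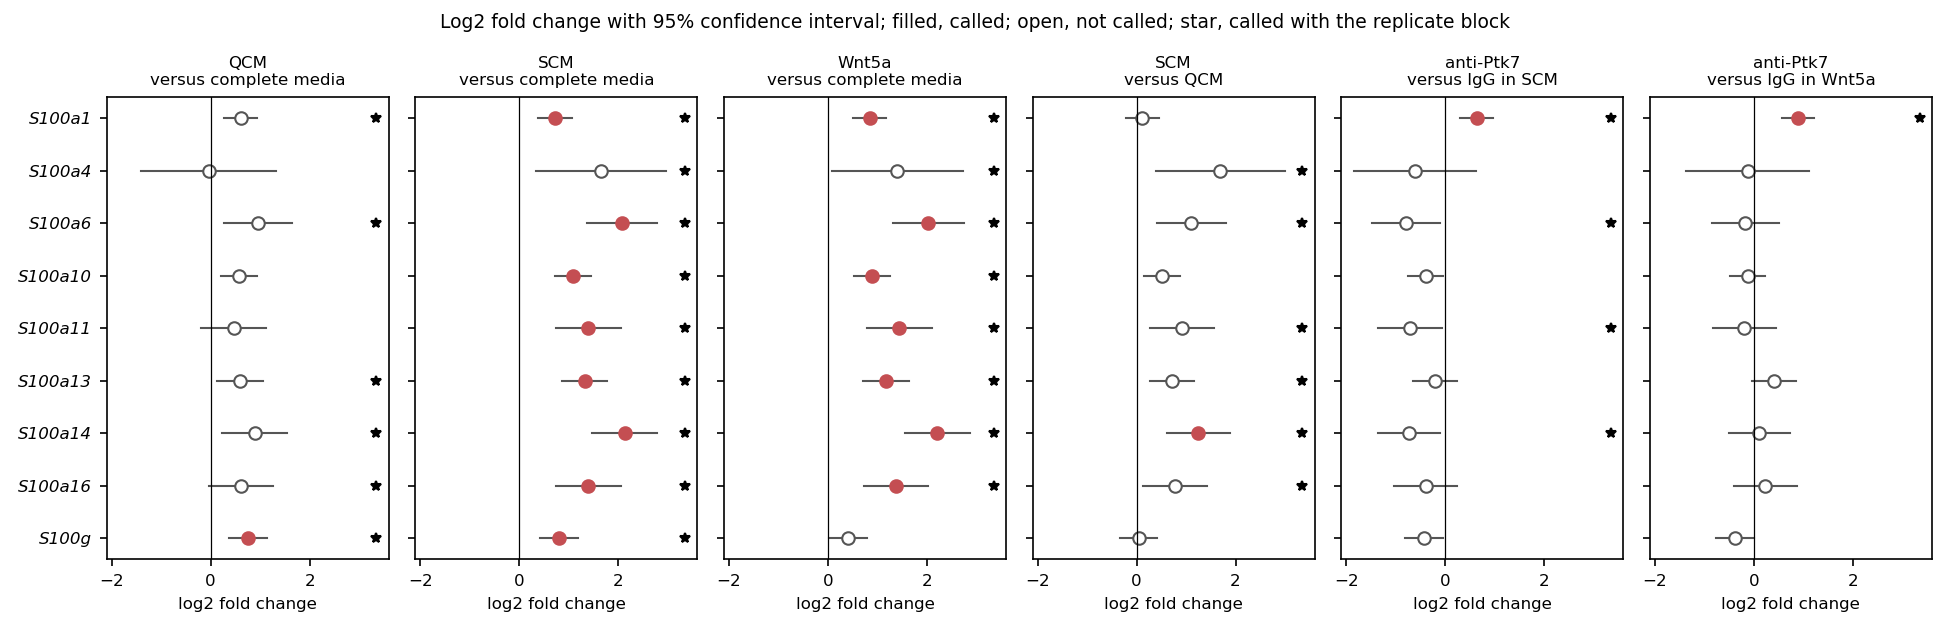
Log2 fold change of each member (horizontal axes) with its 95% confidence interval in 6 comparisons, where filled points were called, open points were not, and stars mark members called with the replicate block. In SCM 8 members and in Wnt5a 7 members were called against complete media, and S100a1 was the 1 member called with anti-Ptk7.

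The antibody comparisons asked what anti-Ptk7 did within a medium. In SCM, S100a1 rose by 0.63 ± 0.16 log2 with anti-Ptk7 (SE, 1.55-fold, adjusted p = 0.0276, higher in 5 of 6 pairs) and was the 1 member called, where 0.581% of all genes were called higher and 0.645% lower. The exception was number 1, at 55.4 CPM with IgG and 47.0 CPM with anti-Ptk7. The call was lost without IgG library 2, 3, 4 or 5 or anti-Ptk7 library 4, 5 or 6, and over the 12 libraries left out in turn the adjusted p ran from 0.00154 to 0.0697. The other 8 members were lower with the antibody by their fold change, from -0.20 log2 (S100a13) to -0.78 (S100a6), and none of them was called. S100a6 at -0.78 ± 0.34, S100a14 at -0.72 ± 0.31 and S100a11 at -0.70 ± 0.32 log2 had adjusted p of 0.218, 0.212 and 0.239, and each was lower in 6 of 6 number-matched pairs. With 1 library left out in turn they ran from -0.95 to -0.46, from -0.90 to -0.42 and from -0.94 to -0.48 log2, nearest to 0 without IgG library 1 and farthest without anti-Ptk7 library 1. With the block these 3 were called lower, at -0.76, -0.68 and -0.72 log2 (1.52% of all genes were), beside S100a1 called higher at 0.67 (1.05% of all genes were). S100g was also lower in 6 of 6 pairs, at -0.43 ± 0.19 log2 (adjusted p = 0.227), and was not called with the block.

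In Wnt5a, S100a1 rose by 0.89 ± 0.16 log2 with anti-Ptk7 (SE, 1.86-fold, adjusted p = 0.00181), in 6 of 6 pairs and with no overlap, and was again the 1 member called (0.452% of all genes were called higher and 0.432% lower). It was called with any 1 of the 12 libraries left out and with the block (0.88 log2, where 0.845% of all genes were called higher). No overlap in that direction was seen in 0.949% of all genes. S100a13 differed by 0.41 ± 0.22 log2 (95% interval -0.030 to 0.85, adjusted p = 0.379), higher in 6 of 6 pairs, and S100g by -0.38 ± 0.19 (adjusted p = 0.335), lower in 6 of 6 pairs. S100a6, S100a10, S100a11, S100a14 and S100a16 differed by -0.19 to 0.23 log2. The antibody effect in Wnt5a less that in SCM was tested as an interaction. By edgeR without the block 0 of the 9 members were called and 0 reached an unadjusted p below 0.05. By DESeq2 and limma with voom 0 were called, and of all genes 0% were by edgeR. The widest difference without the block was in S100a14 at 0.83 ± 0.43 log2 (95% interval -0.047 to 1.71). With the block no member was called either, but the differences were larger beside their SE. They were 0.74 ± 0.17 log2 for S100a14 (adjusted p = 0.154), 0.58 ± 0.18 for S100a6 and 0.45 ± 0.14 for S100a11 (adjusted p = 0.591 for both). The lower S100a6, S100a11 and S100a14 with the antibody in SCM are therefore not shown to be particular to SCM.

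S100a1 and S100a13, which share the 42 bases printed above, were compared as a ratio in each library, log2 of S100a1 over S100a13 with 0.5 CPM added to both. The ratio was chosen after its values were seen and is given with no test. It was 1.88 ± 0.13 in complete media, 1.91 ± 0.20 in QCM + IgG, 1.34 ± 0.23 in SCM + IgG and 1.60 ± 0.16 in Wnt5a + IgG (SD, n = 6). With anti-Ptk7 it was 2.18 ± 0.34 in SCM and 2.10 ± 0.17 in Wnt5a. The SCM + IgG libraries, from 0.94 to 1.62, lay below all of complete media, from 1.72 to 2.07, and below all of SCM + anti-Ptk7, from 1.76 to 2.68. In Wnt5a the lowest library with the antibody was at 1.81 and the highest with IgG at 1.78. The labels do not say whether counting used strand, and the kit does not mark it, so reads cannot be assigned by strand. The 2 annotated genes do not overlap, and reads were counted over coding sequences.

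**Figure D4:**
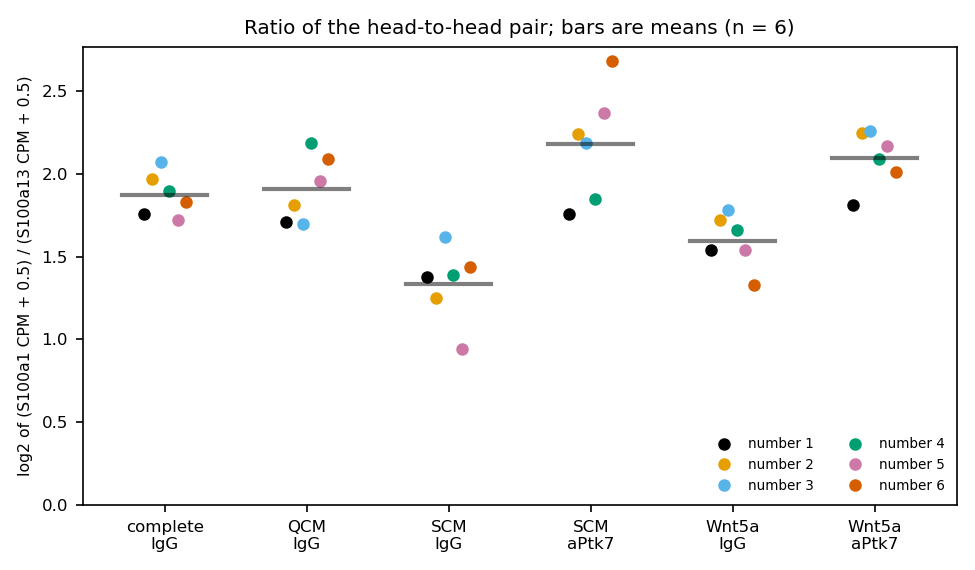
Log2 ratio of S100a1 to S100a13 (0.5 CPM added to each) in every library by condition (aPtk7, anti-Ptk7), coloured by number, with grey bars for the means of 6. SCM + IgG lies lowest at a mean of 1.34, and the 12 libraries with anti-Ptk7 have means of 2.18 and 2.10.

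The order of the 6 condition means was read for each member with the test between neighbours. For S100a6 and S100a10 it ran SCM + IgG, Wnt5a + IgG, Wnt5a + anti-Ptk7, SCM + anti-Ptk7, QCM + IgG and complete media. S100a11 had the first and second exchanged. S100a14 ran Wnt5a + anti-Ptk7, Wnt5a + IgG, SCM + IgG, SCM + anti-Ptk7, QCM + IgG and complete media, and S100a1 ran Wnt5a + anti-Ptk7, SCM + anti-Ptk7, Wnt5a + IgG, SCM + IgG, QCM + IgG and complete media. S100a13 and S100a16 shared an order that opened with Wnt5a + anti-Ptk7, SCM + IgG and Wnt5a + IgG and closed with complete media, and S100a4 was highest in SCM + IgG and lowest in QCM + IgG. S100g ran SCM + IgG, QCM + IgG, Wnt5a + IgG, SCM + anti-Ptk7, Wnt5a + anti-Ptk7 and complete media. No pair of neighbours in the order of any member was called, and the smallest adjusted p between neighbours was 0.0377 (S100a1, SCM + anti-Ptk7 over Wnt5a + IgG, with a fold under the limit). Over all 15 pairs of conditions S100a1 was called in 9, S100a14 in 7, S100a6 in 6, S100a13 and S100a16 in 5, S100a10, S100a11 and S100g in 4 and S100a4 in 0. These pairs reuse the same 6 groups, and the share of all genes called is not given for every pair, so the counts are a description only. S100g fell from SCM + IgG to Wnt5a + anti-Ptk7 by 0.78 ± 0.19 log2 (SE, adjusted p = 0.00418).

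Over the 36 libraries, log2 CPM of S100a6 correlated with S100a14 at r = 0.98, with S100a10 at 0.96 and with S100a11 at 0.96, as a description, since libraries share conditions, mice and the number 1 samples. After the mean of each condition was subtracted, the same 3 were 0.97, 0.96 and 0.95, so libraries within a condition also ranked alike. S100a1 correlated with S100a13 at 0.83 and with S100a11 at 0.56. S100g stood apart, between -0.14 and 0.20 with the other 8, and between -0.29 and -0.032 within conditions. The genes most like each member by Pearson r over the 36 libraries depended on the measure. By Spearman rho, 1 of the 3 named genes stayed among the first 3 for S100a6, S100a11, S100a14, S100a16 and S100g, and 2 of 3 for the other 4 members. By Pearson r they were S100a14 (0.98), Lgals3 (0.97) and Serpinb5 (0.97) for S100a6, and S100a6 (0.96), Serpinb1a (0.94) and Plek2 (0.93) for S100a10. Lgals3 encodes the lectin galectin-3. For S100a11 they were Anxa3, Anxa2 (both 0.98) and Plaur (0.98), the urokinase receptor gene, and for S100a14 they were S100a6 (0.98), Anxa8 (0.98) and Lgals3 (0.97). Lgals3, Krt18 and Krt8, the last 2 encoding keratins of simple epithelium, were most like S100a16 (0.97 each), and Tmsb4x (0.95), F11r (0.93) and S100a14 (0.93) were most like S100a13. For S100a1 they were Nlrc4 (0.91), an inflammasome gene, Tspan6 (0.90) and AW112010 (0.90), for the sparse S100a4 Prmt2 (0.81), Sphk1 (0.77) and Syt8 (0.77), and for S100g Reg4 (0.83), Spink1 (0.80) and Defa24 (0.79), of which Defa24 encodes a Paneth cell defensin. The Spearman values of Spink1 and Defa24 with S100g were lower, at 0.62 and 0.65.

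**Figure D5:**
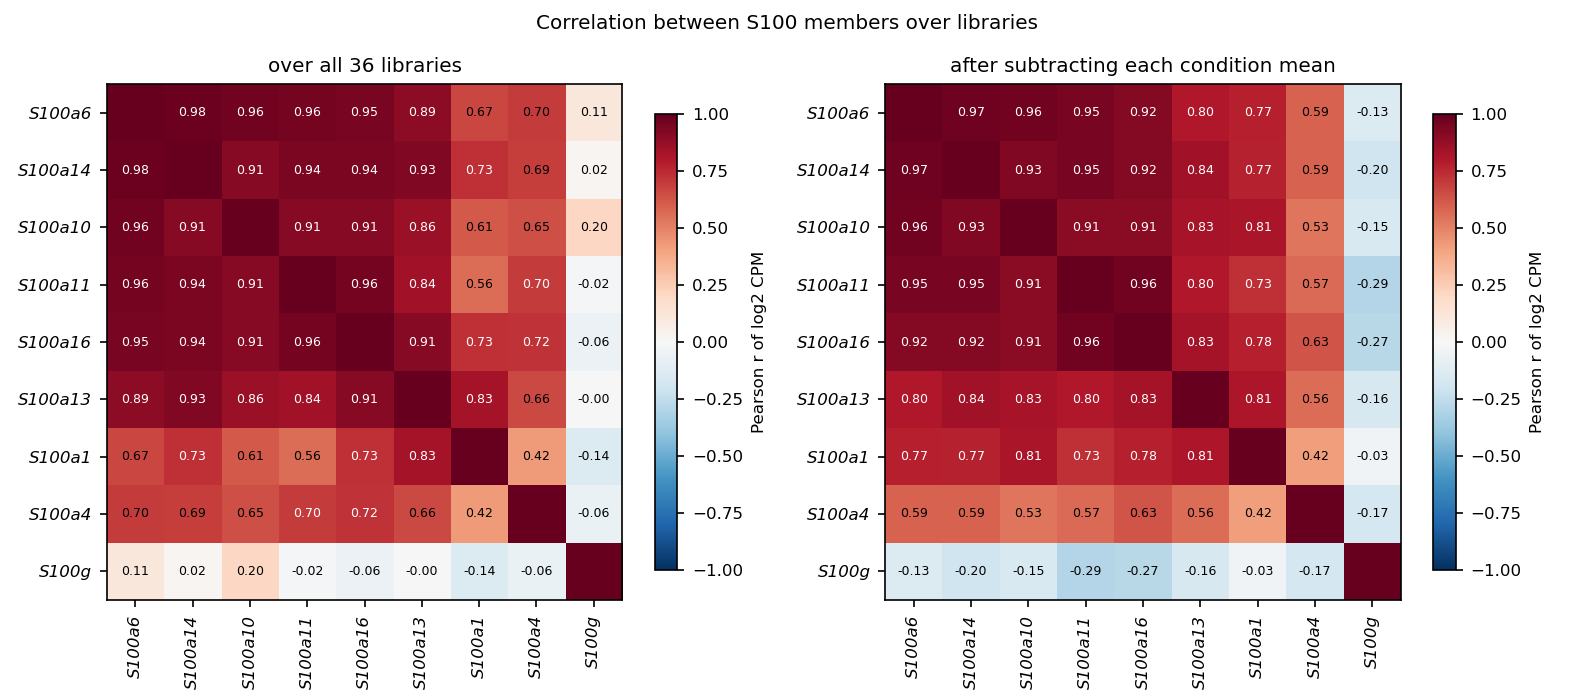
Pearson r of log2 CPM between the 9 members, over all 36 libraries (left) and after each condition mean was subtracted (right), on a colour scale from -1 to 1. S100a6, S100a14, S100a10, S100a11 and S100a16 form a block above 0.9 in both, and S100g lies between -0.29 and 0.20 with all others.

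Of 20 binding partners and receptors of S100 proteins, 18 were tested. In SCM + IgG 6 rose against complete media and none fell, where 4.96% of all genes were called higher, and in Wnt5a + IgG the same 6 genes rose, where 8.29% were, so that both control-sharing comparisons called Ahnak, Anxa1, Anxa2, Anxa5, Anxa6 and Il1a. Anxa2, the partner of S100a10, had a mean of 1018 CPM in complete media, 3158 CPM in SCM (1.63 ± 0.34 log2, SE, adjusted p = 0.00116) and 3997 CPM in Wnt5a (1.97 ± 0.34, adjusted p = 7.07e-05). Anxa1, the partner of S100a11, went from 195 CPM to 630 CPM in SCM (1.70 ± 0.38) and 805 CPM in Wnt5a (2.05 ± 0.39). Ahnak, a giant scaffold protein bound by S100a10 and annexin A2, went from 90.1 to 349 CPM in SCM (1.95 ± 0.46) and 658 CPM in Wnt5a (2.87 ± 0.47). Anxa5 and Anxa6 rose by 1.42 and 1.08 log2 in SCM and by 1.81 and 1.61 log2 in Wnt5a. Il1a, which S100a13 helps to export, had means of 0.24 CPM in complete media, under the 0.5 CPM limit, 1.36 CPM in SCM and 2.07 CPM in Wnt5a. No fold is given for it, since it was under the limit in QCM as well and passed the filter on low counts through the conditions where it was higher. The count of 6 includes Il1a, whose calls add no support. Against QCM, 1 partner, Anxa5, rose in SCM (1.00 ± 0.26 log2, adjusted p = 0.0399), where 0.761% of all genes were called higher, and with the block 5 were (2.74% of all genes), Ahnak (1.35 log2), Anxa1 (1.23), Anxa2 (1.00), Anxa5 (0.98) and Plat (0.63). In Wnt5a against SCM no partner was called without the block, and Ahnak was called higher with it (0.83 log2). The share of all genes called with the block there is not given, so that call cannot be weighed. With anti-Ptk7, Plat, which encodes the tissue plasminogen activator that S100a10 can bind, fell from 31.2 to 8.27 CPM in SCM (-1.91 ± 0.28 log2, adjusted p = 0.00013) and from 28.5 to 12.6 CPM in Wnt5a (-1.18 ± 0.27, adjusted p = 0.0131), lower in 6 of 6 pairs each time. Of all genes 0.645% and 0.432% were called lower with anti-Ptk7 in SCM and in Wnt5a. Anxa1 differed by -1.28 ± 0.38 log2 with the antibody in SCM (adjusted p = 0.0569) and was called lower with the block, as were Anxa2, Anxa5 and Anxa6 (1.52% of all genes were). With the block Fgf1 was also called higher in SCM (5.82% of all genes were) and Tlr4 in Wnt5a (8.62%) against complete media, where Tlr4 had a mean under 0.5 CPM. In Wnt5a the antibody comparison with the block called Anxa1 lower too (-0.70 log2) and Fgf1 higher (1.12 log2). Of all genes 0.845% were called higher there, and the share called lower is not given. In QCM no partner was called without the block and 2, Ahnak and Anxa2, were with it (1.07% of all genes). The receptor gene Ager was not tested, at a mean of 0.21 CPM, and Cacybp, Myh9, Trp53 and Mdm2 were called in none of the 8 comparisons.

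Of 9 genes of active calcium transport, the pathway in which S100g acts, 5 were tested. Vdr, the vitamin D receptor gene, fell from 309 to 176 CPM in SCM (-0.81 ± 0.15 log2, SE, adjusted p = 0.000265), lower in 6 of 6 pairs, while S100g rose. In Wnt5a it was at 207 CPM (-0.57 ± 0.15, adjusted p = 0.00402), short of the fold limit, and it was called there with the block. Trpv6, the apical calcium channel gene, had a mean of 0.088 CPM, and Calb1, Slc8a1 and Cyp24a1 were likewise under 0.5 CPM. Atp2b1, the calcium pump gene of the basal membrane, Rxra, Cldn2 and Cldn12 were not called in any comparison. Cldn2 was higher in 6 of 6 pairs but short of the fold limit in SCM (0.44 ± 0.096 log2, adjusted p = 0.00211) and in Wnt5a (0.50 ± 0.096, adjusted p = 0.000242). It was also short of it with anti-Ptk7 in Wnt5a (0.34 ± 0.096, adjusted p = 0.0491), as was Atp2b1 in Wnt5a against complete media (0.34 ± 0.12, adjusted p = 0.0324).

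All 18 other EF-hand genes listed were tested, and calpain genes led those that moved. Capn2, a calcium-activated protease gene, rose from 40.9 CPM in complete media to 173 CPM in SCM (2.09 ± 0.38 log2, SE, adjusted p = 0.000325) and 272 CPM in Wnt5a (2.73 ± 0.39, adjusted p = 4.93e-06). Capn1 rose in QCM (0.62 ± 0.13 log2, adjusted p = 0.0078), in SCM (1.05 ± 0.13) and in Wnt5a (1.26 ± 0.13), from a mean of 51.7 CPM. Pdcd6 rose in SCM by 0.62 ± 0.15 log2, and Capns1, the small calpain subunit gene, and Chp1 rose in Wnt5a by 0.87 ± 0.17 and 0.61 ± 0.15. The counts were thus 1 of 18 in QCM, 3 in SCM and 4 in Wnt5a, with none lower, beside 0.355%, 4.96% and 8.29% of all genes called higher. With the block, Capn2 was also called higher in QCM against complete media (1.07% of all genes were) and in SCM against QCM (2.74%). It was called higher with the block in Wnt5a against SCM too, where that share is not given. Rcn1 was called lower with the block and anti-Ptk7 in SCM (1.52% of all genes were).

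Of 14 other S100 and S100-fused-type genes, 4 were tested (S100a3, S100a5, S100a7a and Tchh), and these were also the 4 tested of 20 genes within 100 kb of a member between the outermost members on chromosome 3. None of the 4 was called in any of the 8 comparisons by edgeR, with 1 of 4 at an unadjusted p under 0.05 in SCM and 2 in Wnt5a against complete media, and 1 with anti-Ptk7 in SCM. With the block S100a3 was called higher in Wnt5a, at a mean of 1.06 CPM against 0.35 CPM in complete media, which is under the 0.5 CPM limit. S100a8 and S100a9, the calprotectin genes of neutrophils, had means of 0 and 0.014 CPM, and S100b and S100z had 0.22 and 0.17 CPM. Flg, Flg2, Hrnr, Rptn and Tchhl1 had no counts and Crnn had 0.042 CPM.

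Markers of cell types were read beside these results, with the shares of all genes called beside their counts too. Against complete media 0.355% were called higher in QCM, 4.96% in SCM and 8.29% in Wnt5a, and 0.0194%, 1.12% and 1.88% lower. In SCM against QCM 0.761% were called higher. In Wnt5a against SCM 0.297% were called higher and 0.394% lower. With anti-Ptk7 0.645% were called lower in SCM and 0.432% in Wnt5a. The 6 epithelial markers were all present, and Krt8 and Krt18 rose in SCM (1.08 and 1.00 log2) and, with Cdh1 (0.68 log2), in Wnt5a (1.25 and 1.22 log2). Of 10 fibroblast markers 8 were under 0.5 CPM, with Col3a1, Dcn and Thy1 at 0 in every library, and their summed level of 78.9 to 183 CPM came almost wholly from Fbln1. None of the tested fibroblast markers was called, except Pdgfrb with the block, higher with anti-Ptk7 in SCM (2.01 log2, from 1.10 to 4.10 CPM, as were 1.05% of all genes). Of 10 immune cell markers 7 were under 0.5 CPM, with Cd4, Cd8a and Itgax among those at 0, and the sum ran from 10.6 to 20.5 CPM. Of 8 enterocyte markers 3 rose in QCM (Alpi, Apoa4 and Fabp1), 4 rose and 1 fell in SCM (Apoa1 joining those 3, Anpep lower), and 3 rose and 1 fell in Wnt5a (Alpi, Apoa4 and Fabp1, Anpep lower). Alpi fell with anti-Ptk7 in SCM (-0.59 log2) and in Wnt5a (-0.72 log2) and was the 1 enterocyte marker called there, while Fabp1 was at 0.38 and 0.27 log2, higher in 6 of 6 pairs in both, without being called. The summed enterocyte level had medians of 3787 CPM in complete media, 4705 in QCM + IgG, 4685 in SCM + IgG, 4711 in SCM + anti-Ptk7, 3963 in Wnt5a + IgG and 3776 in Wnt5a + anti-Ptk7. Of 8 Paneth and goblet cell markers Ang4 rose in QCM, Ang4 and Mmp7 rose in SCM and in Wnt5a, Mmp7 rose in SCM against QCM, and Lyz1 fell with anti-Ptk7 in Wnt5a. Of 5 stem cell markers Smoc2 fell in SCM and in Wnt5a (-0.77 and -0.67 log2), and of 8 enteroendocrine and tuft cell markers Pyy rose in SCM and Avil, Dclk1, Pyy and Trpm5 rose in Wnt5a. In Wnt5a against SCM, Apoa1 fell and Avil rose. With the block, further markers were called. In QCM against complete media these were Apoa1 (0.61 log2) and Pyy (0.90), higher, and Anpep (-0.87), lower, and in SCM against complete media Avil (0.87), higher. In SCM against QCM they were Krt8 (0.64) and Krt18 (0.59), higher, and Smoc2 (-0.61) and Anpep (-0.69), lower. With the block 1.07% of all genes were called higher in QCM and 5.82% in SCM against complete media, and 2.74% in SCM against QCM. The shares called lower with the block in these comparisons are not given. The part of these differences in the S100 levels was not tested.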

How the data were processed

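The authors made complementary DNA with the Smart-Seq V4 kit from organoid RNA, sequenced it as single-end reads, aligned them with GSNAP (build mm10 per the labels) and deposited raw read counts per Ensembl gene, taken over coding sequences; whether counting used strand is not given in the sources used here. The 36 count tables were used, and a joint table of the same counts was not. The 9 members and all gene lists were chosen with earlier results of these data known. Counts of the 15497 genes kept by filterByExpr were scaled by TMM and fitted with edgeR 4.0.16 (R 4.3.3) in 1 model of 6 condition means. Calls needed a Benjamini-Hochberg adjusted p below 0.05 together with more than 1.5-fold change. Every member was named, with the partner, calcium transport and EF-hand genes that were called, marker genes by count and the 3 genes most like each member by Pearson r. Levels are TMM-scaled CPM, and per-kilobase levels use the union of exons and, beside it, the coding length. Symbols and positions came from GENCODE, and promoters from RefSeq (GRCm38.p6).

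The series text gives 6 mice as the source of the cultures, and the numbers 1 to 6 were taken to mark them, although no label ties a number to a mouse. Over 15497 genes, deviations from condition means correlated at a mean of 0.092 between libraries of the same number (34 of 90 pairs over 0.1) and -0.018 between others (33 of 450 pairs). Alternatives were limma 3.58.1 with voom, DESeq2 1.42.0, other scalings, filters and fold limits, the replicate block, and libraries left out. Leaving out all libraries numbered 1, and that of complete media where overlap was counted, was chosen after seeing the data. The fit was also run on simulated counts with changes of known size, and the outcome is not reported here. In all 90 replicate pairs counts differed beyond sampling noise. p-values measure the spread between these libraries. Some genes of the lists are not reported here by name.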

Additional observations from a re-analysis of the deposited data

Results flagged for a closer look

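Of 54 groups of 6 libraries (9 members in 6 conditions), 9 held a library far from the other 5 by Dixon's test of the gap to its nearest neighbour. Chance flags about 1 group in 20 for normal values. The groups share libraries and correlated members, so the flags are not independent and cannot be set against that rate. In 7 of the 9 the library far from the others was number 1. S100a6 stood at 2320 CPM in SCM + IgG replicate 1, with the next at 1200 CPM, and at 1840 CPM in Wnt5a + IgG replicate 1, with the next at 1120 CPM. S100a10 stood at 1120 CPM in SCM + IgG replicate 1 and at 864 CPM in Wnt5a + IgG replicate 1. S100a14 stood at 160 CPM in Wnt5a + IgG replicate 1, S100a11 at 107 CPM in Wnt5a + anti-Ptk7 replicate 1 and S100a1 at 27.8 CPM in complete media + IgG replicate 1. The other 2 were replicate 5 of QCM + IgG, with S100a1 at 37.7 CPM and S100g at 244 CPM, against 30.9 and 158 CPM in the next library.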

How the results depend on the processing

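For QCM against complete media the count of members called was 1 and became 0 with voom on quantile-normalized or TMM-scaled values, with scaling by upper quartile or library size alone, without the filter, with a fold limit of 2 or glmTreat, 2 with DESeq2 or with the compared groups alone, 6 with the replicate block and 5 without the libraries numbered 1. For SCM against QCM, also 1, it became 2 with voom on quantile-normalized values or DESeq2, 6 with the block, 3 without the libraries numbered 1 and 0 with glmTreat. For anti-Ptk7 in SCM, also 1, it became 4 with the block and 0 with the compared groups alone, a fold limit of 2 or glmTreat. For anti-Ptk7 in Wnt5a it became 0 with a fold limit of 2 or glmTreat, and glmTreat gave 3 in SCM and 4 in Wnt5a against complete media. The share of all genes called is given only for the main fit, the block and the fit without the libraries numbered 1. The other counts show how the calls held and are not results about the members. With 1 library left out in turn, the counts ran from 0 to 1 for QCM against complete media, from 7 to 8 for SCM against complete media, 7 throughout for Wnt5a against complete media, from 0 to 2 for SCM against QCM, from 0 to 1 for anti-Ptk7 in SCM, and 1 throughout for anti-Ptk7 in Wnt5a; the remaining 2 comparisons stayed at 0. The block, besides the calls given above, changed no other call of a member.

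Differences that changed sign were all small. In Wnt5a against SCM, S100a6 was 0.079 log2 and S100a16 0.020 log2 with voom on quantile-normalized values, 0.040 and 0.030 with voom on TMM-scaled counts, 0.052 and 0.035 with the replicate block, and 0.077 and 0.022 without the libraries numbered 1. In SCM against QCM without those libraries, S100a1 was -0.090 log2 and S100g -0.025 log2. Leaving out 1 library gave ranges across 0 in Wnt5a against SCM for S100a4 (-0.48 to 0.13 log2), S100a6 (-0.24 to 0.30), S100a11 (-0.11 to 0.30), S100a13 (-0.28 to 0.061), S100a14 (-0.10 to 0.39) and S100a16 (-0.23 to 0.26), in SCM against QCM for S100a1 (-0.080 to 0.21) and S100g (-0.024 to 0.20), in QCM against complete media for S100a4 (-0.45 to 0.25), in anti-Ptk7 in Wnt5a for S100a4 (-0.31 to 0.089), S100a6 (-0.35 to 0.023), S100a14 (-0.12 to 0.29) and S100a16 (-0.089 to 0.45), and in the antibody difference between media for S100g (-0.074 to 0.20). The cause was not tested. S100a4, with 0 to 40 counts a library, gave no value under the filter of 10 counts in every library, and its differences are limited by that depth. Detection was the same with CPM by library size alone, and 8 members passed a limit of 1 CPM.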
